A study of Caenorhabditis elegans with 6 samples.

Results

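The transthyretin-like genes of Caenorhabditis elegans were examined on arrays of flown and ground-kept worms. Members were the genes whose probe sets carry the symbol ttr followed by a number in the platform's probe-to-gene table. The rule found 40 genes on 41 probe sets, of 17118 genes with a probe set of a single symbol. The group compared first was the space condition, 3 technical replicate arrays from worms of strain CC1 that lived through up to 10 generations aboard the International Space Station. An automatic device moved them to fresh liquid medium, C. elegans maintenance medium (CeMM), at intervals of about 1 month. The group it was set against was the ground control, 3 technical replicate arrays of the same strain passaged on Earth in parallel. CC1 is described by the submitters as wild type, no allele or drug is named for either group, and both grew in CeMM. The flown cultures held worms of all stages, so each array measured RNA of whole mixed-age animals. In such bulk RNA, fewer cells of a type and less RNA per cell cannot be told apart. Nothing in the sources says that arrays of a group came from separate cultures. The p-values therefore cover array-to-array spread alone, possibly all of it technical, and precision is limited by the number of arrays.

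Transthyretin-like proteins are small secreted proteins that are found in many copies in nematodes. Their fold is related to that of vertebrate transthyretin, the blood and cerebrospinal fluid protein that carries thyroid hormone and retinol-binding protein. Both are related to the 5-hydroxyisourate hydrolases, enzymes of urate breakdown. A few worm members have a known role. TTR-52 binds phosphatidylserine exposed on dying cells and bridges it to the engulfment receptor CED-1, and it also takes part in the fusion of severed axons. TTR-11 acts in axon regeneration, and TTR-33 protects dopaminergic neurons from oxidative damage. Most of the others are known by sequence alone, so they are described here by what their probe sets measured.

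Of 59 ttr symbols in the RefSeq gene table of assembly WBcel235, 40 were represented by the rule, and all 40 matched that table with the same symbol. The other 19, among them ttr-11 and ttr-33, were not analysed here. A further 3 probe sets carried several gene symbols with a ttr symbol among them and were not used as members. Their log2 fold changes, space minus ground, were -0.83, -0.19 and -0.28, with adjusted p of 0.111, 0.805 and 0.498 by limma. The gene ttr-24 had a pair of probe sets and each other member had 1. Probe sets of 6 members, ttr-15, ttr-18, ttr-24, ttr-44, ttr-50 and ttr-51, carry the manufacturer's mark for probes shared with other sequences, so related transcripts may contribute to their signal. Levels are linear intensities per probe set. They are compared between arrays for 1 probe set and are not a ranking of transcripts, because probe sets differ in how brightly they bind. Log2 fold changes were computed on log2(intensity + 16), which understates the change of dim genes, and a gene rose or fell if limma gave an adjusted p under 0.05 and it differed at least 2-fold.

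By that rule 2 of the 40 genes rose on the space arrays, ttr-46 and ttr-17, and 0 fell. Over all 17118 genes, 5.34% rose and 2.42% fell, so the family's 5% of rises was near the share of all genes. At an adjusted p under 0.05 with no minimum size, 3 members were higher and 1 was lower on the space arrays, against 6.53% of all genes higher and 3.12% lower. At an unadjusted p under 0.05 there were 13 higher members (32.5%) and 4 lower members (10%), against 15.1% of all genes higher and 10.5% lower. Those shares of all genes include many dim probe sets. Of 31 members with a group mean above all array controls absent from worm RNA, 12 were higher and 2 lower at that threshold. Of 10364 such genes 2302 were higher and 1422 lower. Fold changes were mostly modest, with 37 of 40 members differing less than 2-fold. With both space condition 1 and ground control 3 left out, 0 members rose and 0 fell by limma, and 14 members had an unadjusted p under 0.05, against 23.3% of all genes. That smaller design called 0 of all 17118 genes.

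The largest log2 fold change in the family was that of ttr-46 (T07C12.7, chromosome V). Its intensity was 2519.7, 2019 and 2169 on the space arrays, against 728, 878 and 715 on the ground arrays. Every space array stood above every ground array, with a wide gap between the groups. The log2 fold change was 1.51 ± 0.21 (SE, n = 3 each), a 2.85-fold rise with a 95% interval of 1.03 to 1.99 on the log2 scale and an adjusted p of 0.00787 by limma. The other gene that rose was ttr-17 (Y5F2A.2, chromosome IV). Its intensity was 2828 on space condition 1, 2587 on space condition 2 and 2840.3 on space condition 3, against 1067, 1167 and 1031 on the ground arrays. The values within a group lay close together and the groups were far apart. The log2 fold change of ttr-17 was 1.33 ± 0.19 (adjusted p = 0.00872, limma), a 2.51-fold rise. Both genes still rose when any 1 array was left out, with limma's adjusted p at most 0.0395 for ttr-46 and at most 0.0456 for ttr-17.

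**Figure D1:**
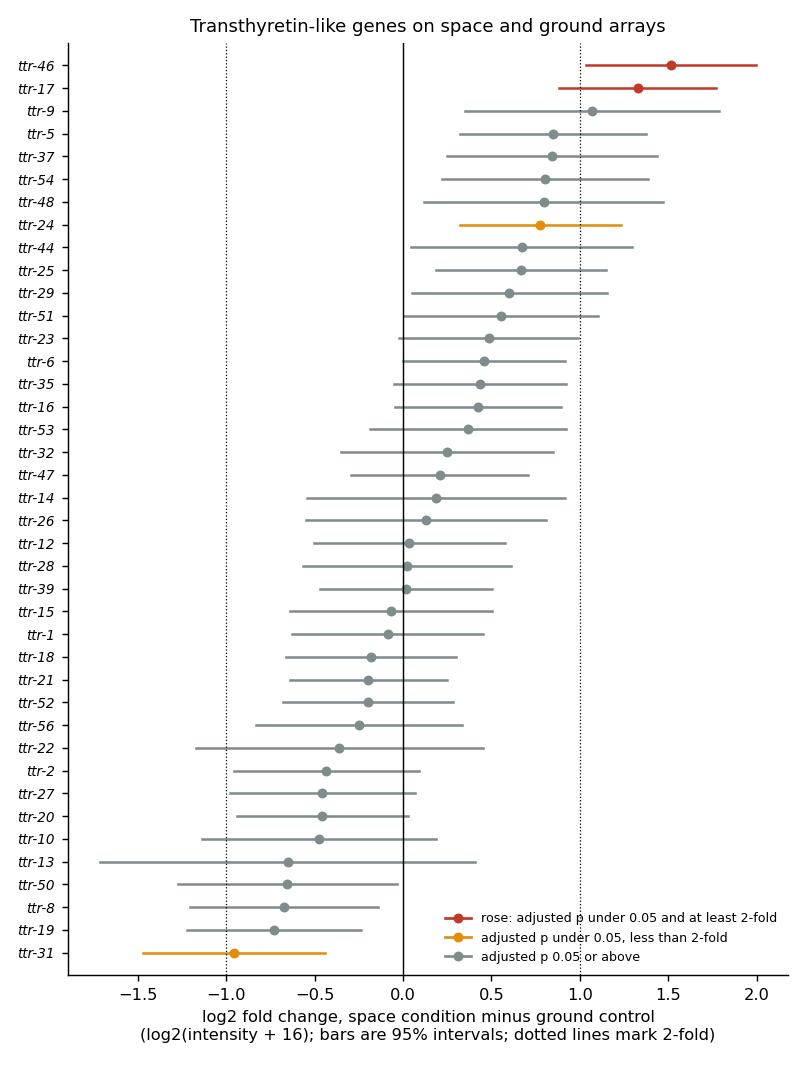
Log2 fold change of each of the 40 transthyretin-like genes, space condition minus ground control, on log2(intensity + 16), with 95% intervals as bars and dotted lines at 2-fold. The 2 genes that rose, ttr-46 and ttr-17, stand at the top, ttr-31 is lowest at -0.96, and 37 of the points lie between the dotted lines.

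A pair of members passed the adjusted p threshold without reaching 2-fold. For ttr-24 (Y51A2D.9, chromosome V), the brighter probe set measured 2803, 2823 and 2733 on the space arrays, against 1740.3, 1433 and 1706 on the ground arrays. The groups did not overlap, and the log2 fold change was 0.78 ± 0.20 (adjusted p = 0.0487, limma). Its second probe set, without the mark for shared probes, measured 446, 464 and 533 on the space arrays, against 375, 279.6 and 249 on the ground arrays. It was likewise higher on every space array, with a log2 difference of 0.66 that missed the threshold (adjusted p = 0.117, limma).

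For ttr-31 (F58A3.5, chromosome X), intensities were 239, 345 and 276 on the space arrays, against 499, 588 and 619 on the ground arrays. Every space array was below every ground array. The log2 fold change of -0.96 ± 0.22 was the lowest in the family (adjusted p = 0.0381, limma). With quantile normalization ttr-31 was past 2-fold and counted as a fall, at -1.13 (adjusted p = 0.0236), and with median centring likewise at -1.0 (adjusted p = 0.0328). Leaving out any 1 of the 6 arrays put both genes above the threshold, with adjusted p of 0.0837 to 0.151 for ttr-24 and 0.0618 to 0.122 for ttr-31 by limma.

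The third largest positive value belonged to ttr-9 (C33A12.15, chromosome IV), a dim probe set. It measured 49.1, 78.2 and 71.1 on the space arrays, against 11.9, 19.8 and 42.2 on the ground arrays. The groups were apart, with ground control 3 close to space condition 1. Its log2 fold change was 1.07 ± 0.31 (adjusted p = 0.0746, limma). Without ground control 3, the ground array nearest to the space values, it was 1.36 with an adjusted p of 0.0409. Leaving out any other array gave adjusted p of 0.101 to 0.207 by limma. Both group means of ttr-9 were within the range of 8 array controls with no counterpart in worm RNA, called absent-sequence controls here, which reached 86.7 with a median of 6.48.

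**Figure D2:**
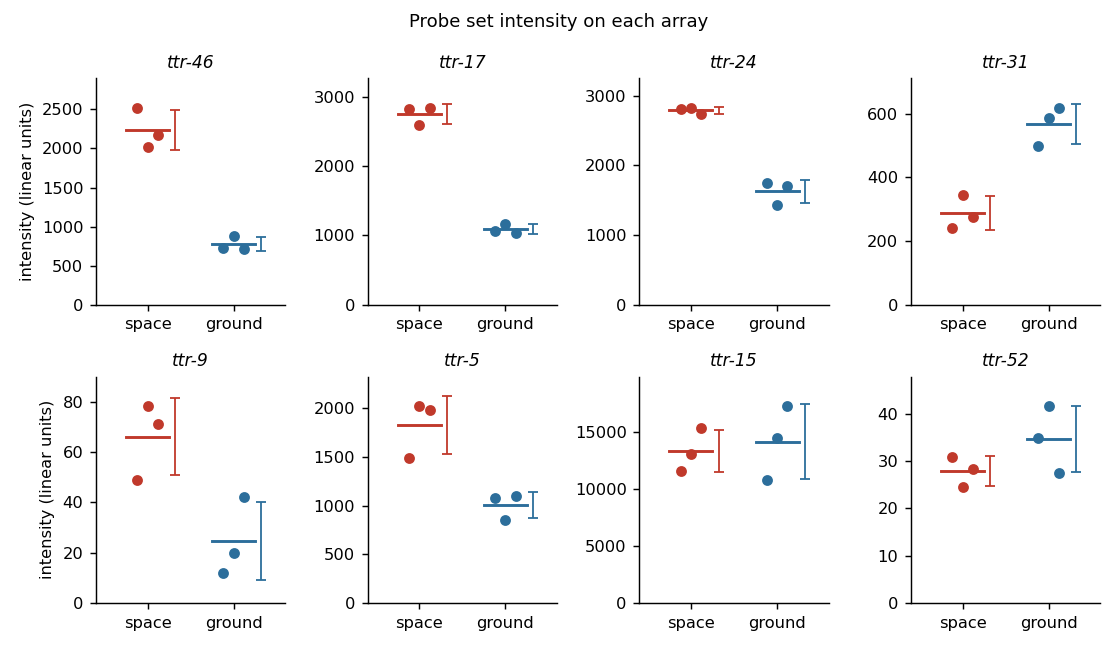
Intensity on each array (points), with group mean (line) and SD (bar), for 8 transthyretin-like genes; the vertical axis is linear intensity, with the space condition on the left and the ground control on the right of each panel. In ttr-46, ttr-17, ttr-24, ttr-9 and ttr-5 all space points lie above all ground points, in ttr-31 they lie below, and in ttr-15 and ttr-52 the groups overlap.

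Many members were separated between the groups, and of these 12 higher and 6 lower members missed the adjusted p. Counting also those that passed it, all 3 space arrays lay above all 3 ground arrays for 15 of 40 members, against 17.6% of all genes. All 3 lay below for 7 of 40, against 13.8% of all genes. The remaining 18 overlapped. Among the 31 members with a group mean above all absent-sequence controls, 45.2% lay above and 19.4% below. Of 10364 such genes 26% lay above and 17.9% below. With quantile normalization the counts over all 40 members were 11 above and 7 below, against 16% and 16.3% of all genes. With median centring they were 13 and 6, against 15.9% and 16.3%. With space condition 1 and ground control 3 both left out, 20 members lay above and 12 below, against 29.5% and 23.9% of all genes.

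Besides ttr-46, ttr-17, ttr-24 and ttr-9, the separated genes with higher space values were ttr-5, ttr-37, ttr-54, ttr-48, ttr-25, ttr-29, ttr-51, ttr-23, ttr-6, ttr-35 and ttr-16. The gene ttr-5 measured 1488, 2019.9 and 1983 on the space arrays, against 1073, 849.9 and 1096 on the ground arrays, with a log2 difference of 0.85 (adjusted p = 0.0576, limma). Its lowest space array was still above its highest ground array. The gene ttr-37 measured 620.4, 937 and 901 on the space arrays, against 349, 476 and 520.3 on the ground arrays, a log2 difference of 0.84 (adjusted p = 0.0850). The gene ttr-54 measured 834, 1104 and 1164 on the space arrays, against 504, 509 and 757 on the ground arrays, a log2 difference of 0.80 (adjusted p = 0.0911). In all 3 genes space condition 1 was the lowest space array. The log2 differences of the others were 0.79 for ttr-48, 0.66 for ttr-25, 0.60 for ttr-29, 0.48 for ttr-23, 0.46 for ttr-6 and 0.44 for ttr-35, with limma's adjusted p of 0.091 to 0.255.

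The separated genes with lower space values, besides ttr-31, were ttr-19, ttr-8, ttr-20, ttr-27, ttr-2 and ttr-21. The gene ttr-19 (C12D8.4) measured 30.7, 41.6 and 43.3 on the space arrays, against 62.6, 80.2 and 79.8 on the ground arrays. These are dim values within the range of the absent-sequence controls, and the groups did not overlap. The log2 difference of ttr-19 was -0.73 ± 0.21 (adjusted p = 0.0747, limma). The gene ttr-8 (R13A5.6) measured 87.3, 122 and 121.5 on the space arrays, against 159, 220.1 and 177 on the ground arrays. Again no array of either group crossed into the other. The log2 difference of ttr-8 was -0.67 ± 0.23 (adjusted p = 0.115, limma). The genes ttr-20 and ttr-27 each had a log2 difference of -0.46, with adjusted p of 0.228 and 0.264.

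The members with the brightest probe sets were ttr-15, ttr-2, ttr-51, ttr-16 and ttr-21, and 0 of these 5 passed the test. The brightest, ttr-15 (T07C4.5), measured 11594, 13065 and 15306 on the space arrays, against 10747, 14429.5 and 17227 on the ground arrays. The ground values enclosed the space values. Its log2 difference was -0.07 ± 0.25 (adjusted p = 0.903, limma), with a 95% interval of -0.64 to 0.50. Its sign turned with quantile normalization, at 0.03, and without ground control 3, at 0.09, or without space condition 1, at 0.03.

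The gene ttr-2 (K03H1.4) measured 5831, 7356 and 8017 on the space arrays, against 9101, 8407 and 11103 on the ground arrays, with a log2 difference of -0.43 ± 0.23 (adjusted p = 0.289, limma). The gene ttr-21 (F09F3.6) measured 3435, 3617 and 3499 on the space arrays, against 4250.1, 4168 and 3702 on the ground arrays, with a log2 difference of -0.20 ± 0.19 (adjusted p = 0.595). In both, the highest space array stayed below the lowest ground array. The gene ttr-51 (JC8.8) measured 6937, 7113 and 8101 on the space arrays, against 4420.3, 4345 and 6575 on the ground arrays, with a log2 difference of 0.55 ± 0.24 (adjusted p = 0.199). The gene ttr-16 (Y5F2A.1) measured 5769, 5827 and 6435 on the space arrays, against 4143, 4164 and 5188 on the ground arrays, with a log2 difference of 0.42 ± 0.20 (adjusted p = 0.252). In ttr-51 and ttr-16 every space array was above every ground array, and ground control 3 came nearest to the space arrays.

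The 18 members whose groups overlapped were ttr-44, ttr-53, ttr-32, ttr-47, ttr-14, ttr-26, ttr-12, ttr-28, ttr-39, ttr-15, ttr-1, ttr-18, ttr-52, ttr-56, ttr-22, ttr-10, ttr-13 and ttr-50. Their log2 differences ran from -0.65 in ttr-50 and ttr-13 to 0.67 in ttr-44. In ttr-26 a single array stood out, space condition 2 at 3285, against 1616 and 1817 on the other space arrays, and with ground arrays from 1838 to 2029. In ttr-13 the single high value was 67.9 on ground control 2, against 9.42 and 11.8 on the other ground arrays. Of the 36 members that did not pass the adjusted p, 21 had a 95% interval inside 2-fold in either direction. The intervals of the other 15 reached beyond 2-fold, so these arrays do not settle whether those genes differed by that much.

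For 9 members both group means were no higher than the brightest absent-sequence control, namely ttr-9, ttr-12, ttr-13, ttr-19, ttr-22, ttr-28, ttr-50, ttr-52 and ttr-56. Among them is ttr-52 (F11F1.7, chromosome III), the engulfment bridging gene. Its probe set measured 30.8, 24.5 and 28.3 on the space arrays, against 34.9, 41.6 and 27.5 on the ground arrays. The groups overlapped and both were close to background. Its log2 difference was -0.20 ± 0.21 (adjusted p = 0.620, limma), with a 95% interval of -0.68 to 0.28.

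Genes of corpse engulfment and of phosphatidylserine exposure, the setting in which TTR-52 works, were followed as a list of 18. On the space arrays 0 of them rose and 1, dyn-1, fell, against 5.34% of all genes that rose and 2.42% that fell. Of the 18, 14 had negative log2 fold changes, against 8783 of all 17118 genes. Their median was -0.29, against a median of -0.02 over all genes. The tally of 14 takes 1 probe set, the brightest, for a gene. Of all 32 probe sets of these genes 20 were negative, and in ced-2, ced-10, pat-2, scrm-1 and tat-1 the probe sets differed in sign. The receptor gene ced-1 measured 948, 1106 and 885 on the space arrays, against 1417, 1521 and 1494 on the ground arrays. Its groups were apart, with a log2 difference of -0.59 ± 0.20 that missed the threshold (adjusted p = 0.112, limma). Its second probe set, with the mark for shared probes, gave -0.27 with overlapping groups.

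The gene dyn-1, which encodes the dynamin that acts in phagosome formation and maturation, measured 236, 169 and 135 on the space arrays, against 466, 524 and 339 on the ground arrays. The gene fell, with a log2 fold change of -1.24 ± 0.27 (adjusted p = 0.0323, limma) on a probe set with the mark for shared probes. A second, dim probe set of dyn-1 gave -0.14 (adjusted p = 0.738). Leaving out space condition 2, space condition 3, ground control 1 or ground control 2 in turn left 0 of the 18 genes called. Without ground control 3 there were 2, dyn-1 at -1.41 and vps-34, a lipid kinase gene of phagosome maturation, at -1.71.

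The gene psr-1, whose product binds phosphatidylserine and acts with the engulfment machinery, measured 649, 571 and 619.7 on the space arrays, against 661, 547 and 589 on the ground arrays, a log2 difference of 0.04 (adjusted p = 0.936, limma). The gene nrf-5, which encodes a secreted lipid-binding protein that acts with TTR-52, measured 2230.3, 2449.7 and 2177 on the space arrays, against 2129.6, 1596 and 1516 on the ground arrays. Every space array was above every ground array in nrf-5, with a log2 difference of 0.40 (adjusted p = 0.313). The worm's genes for relatives of the 5-hydroxyisourate hydrolases did not pass either. R09H10.3 differed by 0.81 (adjusted p = 0.161) and the dim ZK697.8 by -0.84 (adjusted p = 0.268), both with overlapping groups.

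Arrays of the same group differed in how far the members typically lay from the other group. The median over the 40 members of each array's distance from the mean of the opposite group was -0.03 on space condition 1, 0.27 on space condition 2 and 0.26 on space condition 3. On ground controls 1, 2 and 3 it was -0.33, -0.18 and -0.06. Over all genes the same distance was -0.09, 0.03 and 0.03 on space conditions 1, 2 and 3. It was -0.09, 0.11 and -0.02 on ground controls 1, 2 and 3. In the members, space condition 1 was thus the space array, and ground control 3 the ground array, nearest to the other group. The family median log2 fold change of 0.16 became 0.33 without space condition 1, 0.07 without space condition 2, 0.11 without ground control 1 and 0.24 without ground control 3. In the same fits the median over all genes, -0.02 with all arrays, was 0.03, -0.03, -0.06 and -0.02.

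**Figure D3:**
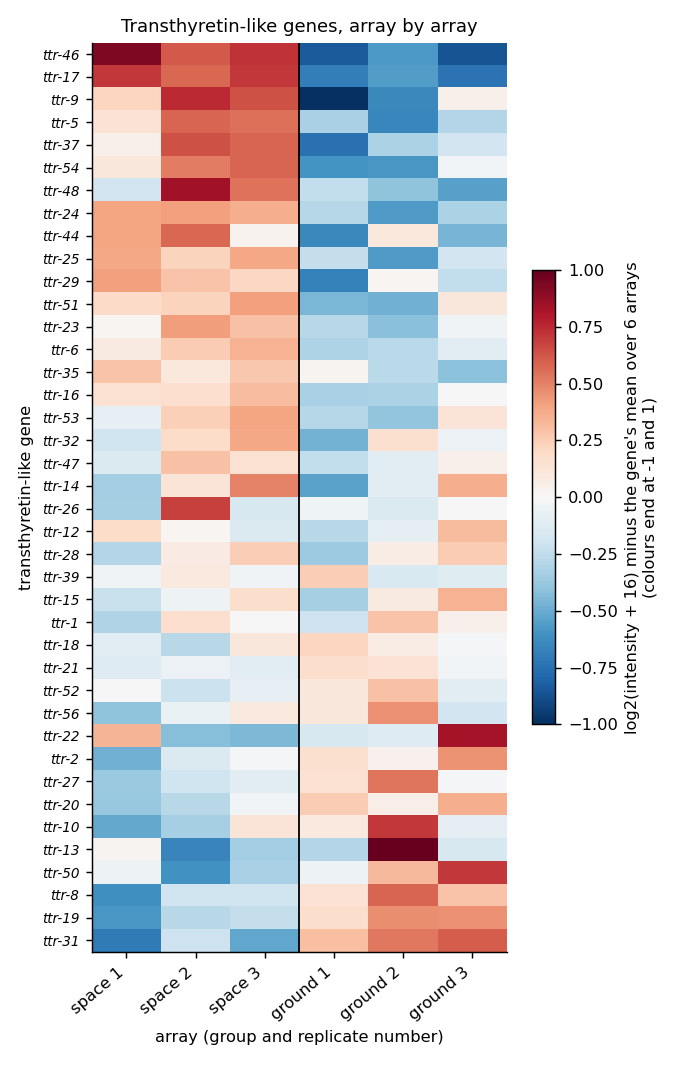
Deviation of each transthyretin-like gene (rows, ordered by fold change) from its own mean over the 6 arrays, on log2(intensity + 16), with space arrays left and ground arrays right; colours end at -1 and 1. The genes ttr-46 and ttr-17 are red on all space arrays and blue on all ground arrays, ttr-31, ttr-19 and ttr-8 show the opposite, and the middle genes vary between arrays of the same group.

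Genes next to each other in the genome gave mixed values. With no other protein-coding gene between them in the RefSeq table, ttr-16 and ttr-17 on chromosome IV had log2 differences of 0.42 and 1.33. The neighbours ttr-54 and ttr-53, also on chromosome IV, had 0.80 and 0.37. On chromosome V the run ttr-24, ttr-25 and ttr-26 had 0.78, 0.66 and 0.13, and the run ttr-27, ttr-28 and ttr-29 had -0.46, 0.02 and 0.60. On chromosome III, ttr-8 and ttr-32 had -0.67 and 0.25, and ttr-2 and ttr-1 had -0.43 and -0.09. The adjacent pairs ttr-8 with ttr-32 and ttr-27 with ttr-28 differed in sign, and the other pairs shared a sign. No value in the pairs of opposite sign passed the test, with limma's adjusted p of 0.115 to 0.972. Of all these neighbours only ttr-17 and ttr-24 passed.

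By chromosome, the 9 members on chromosome IV had a median of 0.42 with 7 positive, and the 6 on chromosome X a median of 0.45 with 5 positive. The 16 on chromosome V had a median of 0.08 with 10 positive, and the 7 on chromosome III a median of -0.09 with 2 positive. Chromosomes I and II each held 1 member, ttr-56 and ttr-18. The medians over all genes of chromosomes III, IV, V and X were 0.08, 0.03, -0.06 and -0.18. These counts are few and were not tested.

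Over the whole family the median log2 fold change was 0.16, with quartiles of -0.28 and 0.62, and 24 of 40 values were positive. Over all genes the median was -0.02, with quartiles of -0.35 and 0.38, and 48.7% were positive. Numbered collagens and Hedgehog-related genes, other large families of secreted proteins, are given for comparison. Of 128 collagen genes 0 rose and 11 fell, the median was -0.27 and 22.7% of values were positive. Of 54 Hedgehog-related genes 2 rose and 3 fell, the median was -0.28 and 22.2% were positive. Both group means were within the range of the absent-sequence controls for 9 of the 40 transthyretin-like genes. The same held for 75 of the collagens, 41 of the Hedgehog-related genes and 6754 of all 17118 genes. The difference between these families was not tested.

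**Figure D4:**
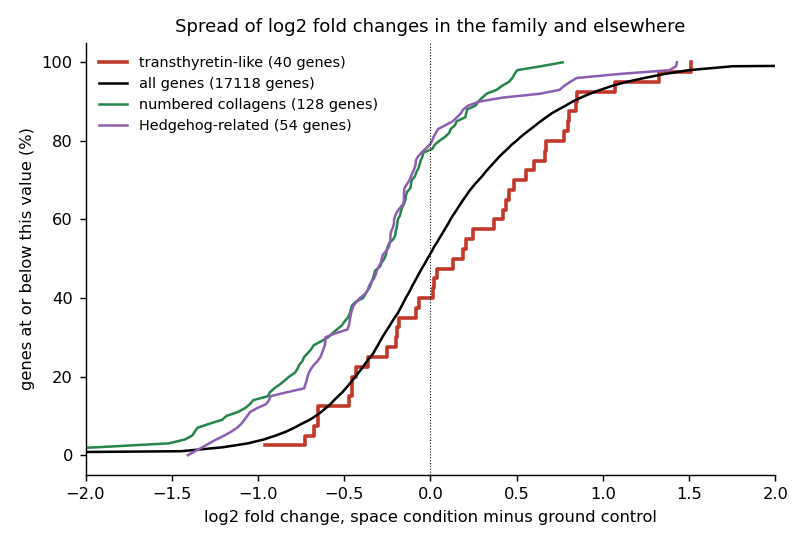
Cumulative distribution of log2 fold changes, space condition minus ground control, for the 40 transthyretin-like genes (steps), all 17118 genes, 128 numbered collagens and 54 Hedgehog-related genes; the vertical axis is the percentage of genes at or below each value. The axis ends at -2 and 2; transthyretin-like genes run from -0.96 to 1.51 with a median of 0.16, and the median of the collagens is -0.27.

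Marker genes of several tissues also differed between the groups. Sums over a list weigh its brightest probe sets most. All 7 germline markers rose, with a summed intensity of 8451 to 9061 on the space arrays, against 3200 to 3891 on the ground arrays and a median log2 fold change of 1.31. None of the 7 had both group means within the range of the absent-sequence controls. Of 8 oocyte and eggshell markers 2 rose, with sums of 4390 to 5267 on the space arrays, against 1978 to 2135 on the ground arrays. Among them cpg-1 was higher on every space array, at 0.77 (adjusted p = 0.045, limma), without reaching 2-fold. Of 6 sperm markers 1 rose, spe-11, and it was among the 3 whose group means both lay within the range of the absent-sequence controls. The sperm markers had a median of 0.45, with 2 negative values. Their sums were 553 to 628.4 on the space arrays, against 367.6 to 437.3 on the ground arrays. Of 9 intestinal markers 0 rose or fell, with a median of -0.13 and 6 negative values. Among them ges-1 was higher on every space array, at 0.94 (adjusted p = 0.039, limma), without reaching 2-fold. The intestinal sums overlapped, at 35710 to 42950 on the space arrays, against 35800 to 50260 on the ground arrays. Of these sums asp-1 alone gave 16938 to 25039. Of 7 hypodermal markers, 3 of them in that dim range, 1 fell, with sums of 3318 to 3457 on the space arrays, against 4229 to 5665 on the ground arrays. Of 6 pharyngeal markers 0 rose or fell, with a median of -0.72 and 4 negative values. Among them myo-1 was lower on every space array, at -0.99 (adjusted p = 0.043, limma), without reaching 2-fold. The pharyngeal sums were 5698 to 6739 on the space arrays, against 7973 to 9681 on the ground arrays. Of 8 body-wall muscle markers 1 rose, myo-3, while 6 had negative values and 1 was in the dim range. The muscle sums were 16110 to 19210 on the space arrays, against 22790 to 28030 on the ground arrays. Of 10 neuronal markers, 3 of them in the dim range, 1 fell, with sums of 18900 to 20960 on the space arrays, against 25210 to 28180 on the ground arrays. Of 4 glial markers, 2 of them in the dim range, 0 rose or fell, with sums of 417.1 to 477 on the space arrays, against 586 to 682 on the ground arrays. The part of tissue proportions or worm age in the values of ttr-46, ttr-17 and the other members was not tested.

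Array quality differed in 1 control. For actin, the 5' control relative to the 3' control averaged -3.12 ± 0.16 on the log2 scale in the space group, against -3.97 ± 0.36 in the ground group (SD, n = 3 each), and the groups did not overlap. For Gapdh they did, with -1.50 ± 0.56 in the space group, against -2.13 ± 1.41 in the ground group. With the mean of these ratios as a covariate, 3 members rose, ttr-46, ttr-17 and ttr-9. In the same fit ttr-24 and ttr-31 no longer passed, with log2 differences of 0.78 and -0.78 and adjusted p of 0.104 and 0.113 by limma. The median intensity of an array was 111.9 to 119.3 in the space group, against 102.5 to 128.1 in the ground group.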

How the data were processed

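Total RNA of 6 samples was hybridised as biotin-labelled cRNA to Affymetrix arrays, per the labels' protocols. Each deposited value is the linear intensity of a probe set on an array. The tool with which the authors summarised and scaled the probes is not given here in any source used, and the mean of each array after trimming 2% at both ends was 500.1 to 500.2. Groups and replicate numbers came from the sample titles. The deposited intensities were put on a log2(intensity + 16) scale. The model had only the group as a term. It was fitted with lmFit and eBayes (limma 3.58.1, R 4.3.3), and p-values were adjusted by Benjamini-Hochberg across 22548 probe sets, which are the 22625 deposited without 77 array controls. The limma code was tested on simulated data. The probe set with the highest mean stood for each of 17118 genes. A single symbol was held by 20766 of the probe sets, more than 1 by 887 and none by 895, and probe sets without a single symbol were tested but not named. The plots were made in Python 3.11.15 (matplotlib 3.10.9).

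The members, gene lists and tests were chosen with earlier results of these data known. Each member is named. Given in full are members with an adjusted p under 0.05, the 3 largest and 3 smallest fold changes, the 5 highest means and ttr-52, and, from the engulfment list, genes past that threshold with ced-1, psr-1 and nrf-5. The genes ttr-5, ttr-37, ttr-54, ttr-26, ttr-13 and vps-34 were singled out after their values were seen.

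Deviations of same-numbered space and ground arrays from their group means correlated at 0.388, 0.058 and 0.171. Those of differently numbered arrays correlated at -0.28 to 0.159. These values do not settle whether the replicate numbers pair the samples. The main model left the replicate number out, and it was tried as a block. In all, 19 alternatives were tried, covering scaling, pseudocounts, filters, the variance model, covariates and arrays left out. No coordinates were used, and RefSeq served for names, chromosomes and gene order alone.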

Additional observations from a re-analysis of the deposited data

How the results depend on the processing

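The count of members that rose, 2 as reported, was 2 or 3 under 17 of 19 alternatives. It was 0 with a 1.5-fold minimum inside the test, where limma's adjusted p was 0.0759 for ttr-46 and 0.117 for ttr-17, and 0 with space condition 1 and ground control 3 both left out. Leaving out 1 array at a time gave 2 to 3. In that range ttr-46 and ttr-17 stayed past the threshold, and ttr-9 joined them without ground control 3. The count of members that fell was 1, ttr-31, with quantile normalization and with median centring, and 0 under the other 17. The family median of 0.16 was 0.37 over the 31 members that passed a filter on dim probe sets. The median over all genes that passed it was 0.06, against -0.02 without the filter, and the cause of the family's change was not tested. The family median was 0.073 to 0.33 with 1 array left out and 0.33 with both arrays left out. It was positive in each of these. Space condition 1 and ground control 3 were the arrays nearest to the other group in the members, so a higher median without them is no separate support. The value of ttr-15 turned positive with quantile normalization (0.035), with the control-ratio covariate (0.20), with both arrays left out (0.18) and at the upper end of its leave-one-out range of -0.25 to 0.088. The count of members with all space arrays below all ground arrays was 12 with both arrays left out, a smaller comparison that separates more genes. The replicate number as a block gave 3 rises, since ttr-9 joined at an adjusted p of 0.0499. Over all genes, quantile normalization gave 692 rises and 512 falls and median centring 780 and 487, against 914 and 415 as deposited.

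The engulfment count of 1 was 2 with quantile normalization, median centring, a pseudocount of 64, the dim filter, an intensity trend, the replicate block or the covariate, where vps-34 joined dyn-1. It was 0 with a pseudocount of 1, unmarked probe sets alone, the 1.5-fold minimum, the mean of a gene's probe sets or both arrays left out, and 0 to 2 with 1 array left out. Signals near the absent-sequence controls limit what can be said of 9 members. The separation counts with other scalings or with both arrays left out were added after seeing the data.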
